A study of Mus musculus with 2 samples.

Results

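Abca1 moves cholesterol and phospholipid out of the cell, and it is a classical target gene of the liver X receptors (LXRs). The expression of Abca1 and of 8 further genes of this pathway was followed in mouse foetal germ cells after inhibition of FGF receptor or MEK1/2 signalling in the gonad. The 9 genes were taken by symbol from the 42422 genes of the count table: the transporters Abca1 and Abcg1, the ubiquitin ligase Mylip, the lipogenic factor Srebf1, the desaturases Scd1 and Scd2, the acyltransferase Lpcat3, and the receptors Nr1h2 (LXR-beta) and Nr1h3 (LXR-alpha). They were selected on Abca1 being the 1 gene called between FGFR inhibitor and vehicle at 72 h, so that contrast is described without a test. Of the 9 genes, 8 passed the filter on low counts and were tested, and Nr1h3 did not pass.

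LXRs are nuclear receptors that bind DNA together with a retinoid X receptor and are activated by oxysterols, the oxidised forms of cholesterol. When sterol accumulates, they induce genes that export cholesterol (Abca1, Abcg1), that limit its uptake (Mylip, also called Idol, which marks lipoprotein receptors for degradation) and that make and remodel fatty acids and phospholipids (Srebf1, Scd1, Scd2, Lpcat3). SREBP2 acts in the opposite direction and raises cholesterol synthesis and uptake when sterol is low.

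Gonads were taken at E12.5 from wild-type embryos of ASMU Swiss and Oct4-eGFP 129svJT2 parents, and germ cells were sorted by the fluorescence of the Oct4-eGFP transgene. XX and XY gonads were sorted at 0 h, or after 24 h or 72 h of culture with the mesonephros in the vehicle DMSO. XY gonads were also cultured in 500 nM of the FGFR inhibitor BGJ398/Infigratinib (FGFRi) or of the MEK1/2 inhibitor PD0325901/Mirdametinib (MEKi), to which all cells of the gonad were exposed. Each of the 10 groups had 4 libraries, 40 in all, each from several pooled gonads. By the methods of the study, gonads were pooled for each sample. Neither they nor the labels say whether libraries of a group came from separate cultures. The p-values measure the spread between these libraries, which may be partly technical and may leave out that between cultures.

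Total counts per library lay between 1178953 and 5199153. Pool 1 of the sequencing held the 0 h, 24 h DMSO and 24 h MEKi groups, and pool 2 held 24 h FGFRi and every 72 h group. Pool and comparison cannot be told apart for 24 h FGFRi against DMSO or for 72 h against 0 h. In addition, 16 libraries of pool 1 had the same sample index as a library of pool 2. Y-linked counts in the 4 XX 24 h DMSO libraries amounted to 4.20% of those of their index partners, the XY 72 h FGFRi libraries, and comparisons were repeated with this share subtracted. The 6 germ cell markers were present in every group and summed to between 2089 and 5640 CPM (counts scaled to a common library size by TMM). XY 24 h DMSO replicate 2 stood apart with 163.8 CPM of the 6 Sertoli cell markers, against 28.5 to 50.5 CPM in the other libraries of its group, and no call for a member was lost without it. In sorted bulk RNA, a different share of cells and a different amount of RNA per cell cannot be told apart.

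The Abca1 gene lies at chr4:53030787-53159900 on the minus strand (GRCm39). LXRs bind a direct repeat of a half-site with 4 free bases, the DR4 element, searched here on both strands as 2 copies of GGTNA in the same orientation with 5 bases between them. RefSeq promoter windows (GRCm38.p6, 250 bases before to 50 bases after the start) were found for 6 of the 9 genes, in 9 windows. The windows with a DR4 match, 1 of Abca1 and 1 of the 3 of Srebf1, are shown because this is the element through which LXRs act. They are written 5′ to 3′ on the gene strand, which is the minus strand for both, with the match in capitals.
Abca1 promoter, chr4:53159846-53160145: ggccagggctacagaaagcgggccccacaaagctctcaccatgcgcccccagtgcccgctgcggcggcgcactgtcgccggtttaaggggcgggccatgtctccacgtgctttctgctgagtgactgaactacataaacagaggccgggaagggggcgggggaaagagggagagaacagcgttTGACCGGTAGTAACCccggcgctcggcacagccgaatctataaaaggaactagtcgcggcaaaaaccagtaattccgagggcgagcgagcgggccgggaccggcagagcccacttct
Srebf1 promoter, chr11:60210422-60210721: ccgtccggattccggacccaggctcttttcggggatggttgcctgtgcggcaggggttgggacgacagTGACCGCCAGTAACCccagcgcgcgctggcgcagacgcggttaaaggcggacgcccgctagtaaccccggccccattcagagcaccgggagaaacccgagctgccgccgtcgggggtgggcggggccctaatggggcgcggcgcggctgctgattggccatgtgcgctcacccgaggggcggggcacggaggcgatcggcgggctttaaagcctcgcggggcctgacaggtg
The match ended 53 bases before the start in Abca1 and 168 bases before it in Srebf1. A match was present in 0.718% of all 32851 windows of this length. The sterol response element TCACNCCAC was in no window of the members and in 1.24% of all windows. The ETS site CCGGAAGT had 5 matches, a pair of them overlapping, in the Nr1h2 window and was in 3.89% of all windows. No binding was measured, and Abcg1, Scd1 and Scd2 were not in the table of windows.

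Abca1 was at its highest level in germ cells of XY gonads cultured for 72 h in FGFRi. The XY 72 h FGFRi libraries held 105.6, 124.1, 134.2 and 151.4 CPM and the XY 72 h DMSO libraries 49.3, 49.7, 49.9 and 53.7 CPM. The ranges did not overlap. The means were 128.8 ± 19.2 CPM (SD, n = 4) and 50.7 ± 2.07 CPM, a log2 difference of 1.39. Abca1 was itself the 1 gene of 15252 called in this contrast, which is 0.00656%.

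After 24 h in FGFRi, in libraries that the choice of the gene did not use, Abca1 was also higher. The XY 24 h FGFRi libraries held 48.6, 62.0, 67.0 and 71.7 CPM and the XY 24 h DMSO libraries 17.6, 19.3, 26.1 and 26.2 CPM. All treated libraries were above all controls. The log2 difference was 1.42 ± 0.17 (SE, 2.68-fold, 95% interval 1.08 to 1.76, FDR = 0.00433, limma treat against a 1.5-fold change). Called, here and below, refers to this test unless another is named, and a looser rule, limma eBayes with an observed fold over 1.5, called more members. Of the 8 members, 1 was called higher and 0 lower, beside 0.131% of all genes higher and 0.131% lower. The FDR stayed between 0.00140 and 0.0354 when each library was left out, and was 0.0782 when genes with low counts were kept.

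With MEKi, Abca1 was not called at either time. The XY 24 h MEKi libraries held 18.1, 22.8, 26.6 and 27.0 CPM, with a log2 difference from DMSO of −0.01 (95% interval −0.40 to 0.39). The XY 72 h MEKi libraries held 44.7, 47.8, 50.1 and 55.3 CPM, with a log2 difference of −0.01 (95% interval −0.27 to 0.26). Both groups overlapped their controls, which are the same libraries as in the FGFRi comparisons. FGFRi and MEKi were not tested against each other.

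**Figure D1:**
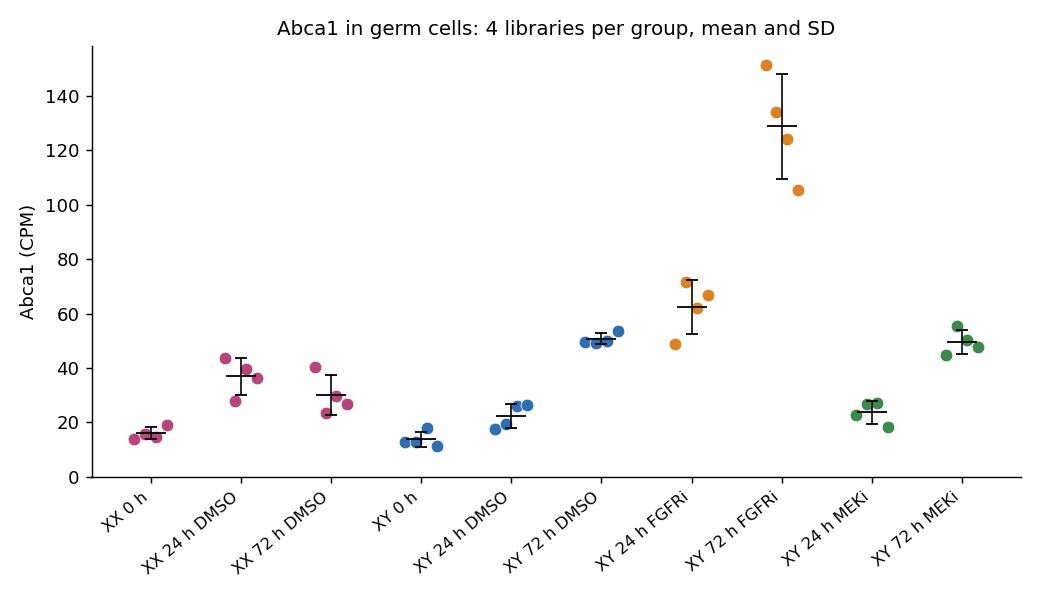
Abca1 level in CPM (vertical axis) in the 4 germ cell libraries of each of the 10 groups (points), with the mean and SD (black). The XY 72 h FGFRi libraries lie at 105.6 to 151.4 CPM, above every other library, and the XY 24 h FGFRi libraries at 48.6 to 71.7 CPM.

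In culture without inhibitor, Abca1 rose in XY germ cells. The XY 0 h libraries held 11.4, 12.7, 12.7 and 17.8 CPM, all below the 72 h DMSO libraries given above (log2 1.96 ± 0.19, FDR = 2.67e-08). The XX 0 h libraries held 14.0, 14.7, 15.8 and 18.9 CPM. XX libraries held 27.9, 36.3, 39.6 and 43.6 CPM after 24 h and 23.4, 26.8, 29.8 and 40.3 CPM after 72 h in DMSO. Every cultured XX library was above every XX 0 h library, but neither difference was called (log2 1.13 ± 0.19, FDR = 0.0717 at 24 h and 0.88 ± 0.20, FDR = 0.163 at 72 h). By 24 h the log2 difference in XY was 0.84 ± 0.21, with overlapping ranges, and was not called (FDR = 0.990, but 0.00237 by eBayes with a fold over 1.5).

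The sex difference of Abca1 was not called by limma treat at any time. At 0 h it was −0.34 ± 0.22 (log2 XY minus XX, FDR = 1), with overlapping libraries. At 24 h in DMSO every XY library was below every XX library (−0.63 ± 0.18, FDR = 1, but 0.00439 by eBayes with a fold over 1.5), and at 72 h every XY library was above every XX library (0.73 ± 0.17, FDR = 0.371, but 0.000228 by eBayes). The XY 72 h DMSO libraries were also the controls of the contrast that chose the genes.

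The XX 24 h value depended on the method and on the shared index. The subtraction removed 83 of the 370 Abca1 counts of the XX 24 h DMSO libraries and left a log2 difference of 0.89 (FDR = 0.588). Without subtraction, the difference was called by edgeR (FDR = 0.00328), by DESeq2 (0.0401), after upper-quartile scaling (0.0338) and without XX 24 h DMSO replicate 5 (0.0183), and also by eBayes (4.90e-06). The 72 h difference in XX cells was called by edgeR (0.0320), by eBayes (0.000130) and with the replicate block (0.0337).

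In the order of group means, XY 72 h FGFRi stood first and apart. XY 24 h FGFRi, XY 72 h DMSO and XY 72 h MEKi followed at 62.3, 50.7 and 49.5 CPM, each overlapping the next, and did not overlap the groups below. Those ran from XX 24 h DMSO at 36.9 CPM through XX 72 h DMSO, XY 24 h MEKi, XY 24 h DMSO and XX 0 h to XY 0 h at 13.7 CPM, each overlapping its neighbour. All XY groups from XY 72 h MEKi upward were in pool 2, and all XY groups below it were in pool 1. Among XY groups, pool and this break cannot be told apart.

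Markers of other cell types were detected in the sorted libraries. The 12 macrophage markers, from a cell type known for Abca1, summed to 12.1 to 16.2 CPM in XY 72 h FGFRi and 13.9 to 23.4 CPM in XY 72 h DMSO, with C1qa and C1qc at 0 in both. At 24 h they summed to 3.26 to 6.89 CPM in FGFRi and 2.71 to 6.22 CPM in DMSO, with Adgre1, Mrc1, C1qc and Fcgr1 at 0 in both. At both times the groups did not overlap in Abca1 and overlapped in these sums.

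The 8 markers of interstitial and mesonephric mesenchyme were lower in XY 72 h FGFRi, at 64.3 to 90.4 against 129.99 to 270.9 CPM, and overlapped at 24 h, at 41.7 to 83.8 against 42.5 to 70.1 CPM. The 7 endothelial markers overlapped at 72 h, at 65.8 to 76.9 against 57.1 to 80.6 CPM. From XY 0 h to XY 72 h DMSO, where Abca1 rose, the endothelial sum was higher (from 21.9 to 28.1 CPM), as were those of the macrophage markers (from 3.92 to 8.04 to 13.9 to 23.4 CPM) and of the 4 granulosa cell markers (from 6.14 to 13.4 to 27.2 to 33.0 CPM). In XY 72 h MEKi the endothelial sum was 19.9 to 34.1 CPM and the macrophage sum 5.96 to 11.6 CPM, both below DMSO, while Abca1 overlapped DMSO. Their part in these results was not tested.

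Abcg1, which passes cholesterol to HDL particles, was higher in the XY sex and fell in culture. At 0 h, XY libraries held 179.9, 216.3, 253.4 and 278.9 CPM and XX libraries 82.5, 94.6, 95.4 and 166.5 CPM. At 24 h in DMSO, XY libraries held 202.1 to 252.1 CPM and XX libraries 45.1 to 66.6 CPM. At 72 h in DMSO, XY libraries held 40.1, 67.2, 73.4 and 103.5 CPM and XX libraries 8.70, 8.78, 9.10 and 10.998 CPM. The sexes did not overlap at any time.

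The sex difference of Abcg1 was called at 0 h (log2 XY minus XX 1.25 ± 0.15, FDR = 0.00190, but 0.318 by DESeq2), at 24 h (1.94 ± 0.18, FDR = 7.23e-08) and at 72 h (2.76 ± 0.38, FDR = 1.53e-06). From 0 h to 72 h, Abcg1 fell in XY (log2 −1.81 ± 0.17, FDR = 1.57e-08) and in XX germ cells (−3.32 ± 0.37, FDR = 5.70e-09). The sex difference widened by 1.51 ± 0.41 between 0 h and 72 h (FDR = 0.0459). This last call was lost without any 1 of 10 libraries: XX 0 h replicate 2, XY 0 h replicates 2 and 6, XX 72 h DMSO replicates 4, 7, 8 and 11, and XY 72 h DMSO replicates 2, 5 and 6 (FDR 0.0511 to 0.0934), and with the replicate block (FDR = 0.185). It was also lost with DESeq2 size factors (FDR = 0.0502), without the filter (0.0750) and with only the groups compared (0.0693).

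By limma treat, Abcg1 was called with neither FGFRi at 24 h nor MEKi at either time. FGFRi libraries held 167.2 to 286.8 CPM at 24 h (log2 0.11, 95% interval −0.19 to 0.41) and 76.0 to 101.7 CPM at 72 h, both overlapping DMSO. The XY 24 h MEKi libraries held 98.4, 115.9, 123.2 and 129.8 CPM, all below DMSO, with a log2 difference of −0.94 ± 0.16 (unadjusted p = 0.0156 and FDR = 1 in limma treat, FDR = 7.85e-05 by eBayes with a fold over 1.5). In the same libraries the red blood cell markers summed to 182.0 to 465.9 against 23.7 to 114.1 CPM in DMSO, the mesenchyme markers to 92.0 to 124.9 against 42.5 to 70.1 CPM, the macrophage markers to 9.29 to 16.5 against 2.71 to 6.22 CPM and the endothelial markers to 22.8 to 31.8 against 14.1 to 19.2 CPM, and their part was not tested. XY 72 h MEKi libraries held 59.6 to 73.5 CPM, inside the DMSO range.

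Mylip (chr13:45543215-45565501, plus strand) was the other member whose FGFRi libraries all lay above DMSO. At 72 h, FGFRi libraries held 34.8, 38.4, 42.3 and 46.4 CPM and DMSO libraries 14.8, 18.4, 19.3 and 23.2 CPM, a log2 difference of 1.12. Abca1 and Mylip were the 2 of 8 members without overlap in this contrast, both upward, where 3.65% of all genes had no overlap upward and 3.06% downward. Since the contrast chose the genes, nothing is read from this count.

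At 24 h, Mylip was at 26.0, 34.2, 40.2 and 54.3 CPM in FGFRi and 7.81, 13.0, 13.1 and 24.9 CPM in DMSO. The ranges did not overlap, but the log2 difference of 1.19 ± 0.23 did not pass the adjustment over all genes (unadjusted p = 0.00575, FDR = 0.690, limma treat), and was called by eBayes (0.000608). MEKi libraries held 8.21 to 14.3 CPM at 24 h, overlapping DMSO, and 8.93 to 14.5 CPM at 72 h, all below DMSO, and neither difference was called (log2 −0.64 ± 0.30 and −0.44 ± 0.23).

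Mylip also differed by sex at 24 h and by time in XX germ cells. XX 24 h DMSO libraries held 3.78 to 7.16 CPM, all below XY (log2 XY minus XX 1.65 ± 0.37, FDR = 0.0344). The call was lost without XX 24 h DMSO replicate 5 (FDR = 0.135), 6 (0.0576) or 9 (0.0991), without XY 24 h DMSO replicate 4 (0.0760) or 5 (0.465), without the filter (0.201) and with the replicate block (0.0517), and the log2 difference was 2.73 with index-shared counts subtracted. In XX germ cells, Mylip rose from 3.50, 4.63, 5.82 and 6.41 CPM at 0 h to 10.998, 14.1, 18.7 and 19.1 CPM at 72 h (log2 1.48 ± 0.35, FDR = 0.0189). That call was lost without XX 72 h DMSO replicate 11 (FDR = 0.0754) or 4 (0.0644). In XY germ cells the log2 difference from 0 h to 72 h was 1.06 ± 0.29 (FDR = 0.139), called by edgeR (0.0383), by eBayes (0.00146) and after upper-quartile scaling (0.0304).

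Srebf1, the transcription factor of fatty acid synthesis, was called by limma treat in no comparison. Its libraries ran from 19.2 CPM in XY 72 h DMSO to 56.9 CPM in XY 24 h MEKi. FGFRi libraries held 41.6 to 53.4 CPM at 24 h and 23.9 to 36.3 CPM at 72 h, overlapping DMSO at both times. XY 72 h MEKi libraries held 35.1, 39.05, 41.5 and 47.1 CPM, all above the 19.2 to 28.5 CPM of DMSO (log2 0.78 ± 0.17, FDR = 0.611 by treat and 0.000182 by eBayes with a fold over 1.5).

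Scd1, which makes monounsaturated fatty acids, rose in the first 24 h of culture in both sexes. In XY germ cells it went from 2.63, 2.67, 3.11 and 3.14 CPM at 0 h to 10.4, 24.9, 25.8 and 26.5 CPM at 24 h (log2 2.89 ± 0.39, FDR = 2.23e-05). In XX germ cells it went from 10.5, 11.6, 17.5 and 18.4 CPM to 48.6, 59.5, 77.2 and 78.0 CPM (log2 2.10 ± 0.20, FDR = 1.02e-07). At 72 h in DMSO it was at 2.24 to 7.96 CPM in XY and 7.12 to 14.5 CPM in XX germ cells, overlapping 0 h in both.

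Scd1 was lower in the XY sex at 0 h (log2 XY minus XX −2.30 ± 0.39, FDR = 0.00199) and at 24 h (−1.51 ± 0.18, FDR = 0.000107), the opposite direction to Abcg1. At 72 h the difference was −1.41 ± 0.43 (FDR = 0.0744), called by edgeR (0.0177), by eBayes (0.00377), without XX 72 h DMSO replicate 8 (0.0331) and without XY 72 h DMSO replicate 6 (0.0388).

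With MEKi at 72 h, Scd1 was at 11.4, 12.1, 12.53 and 14.3 CPM against 2.24, 2.66, 4.598 and 7.96 CPM in DMSO (log2 1.75 ± 0.38, FDR = 0.0223), with no overlap. The call was lost without XY 72 h DMSO replicate 2 (FDR = 0.186) or 5 (0.0816), without XY 72 h MEKi replicate 4 (0.0692), without the filter (0.115) and with DESeq2 (0.0854). FGFRi libraries held 5.21, 6.31, 10.6 and 13.7 CPM at 24 h, overlapping DMSO (log2 −1.40 ± 0.32, FDR = 0.757 by treat and 0.00354 by eBayes), and 2.78 to 3.87 CPM at 72 h, inside the DMSO range.

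Scd2, a second stearoyl-CoA desaturase, was called by limma treat in no comparison with all libraries. By eBayes with a fold over 1.5 it was called between the sexes at 72 h (FDR = 0.000161), from 0 h to 24 h in XY (0.000105) and XX (1.80e-06), from 0 h to 72 h in XX (8.45e-05) and for the change of the sex difference (0.00771). It was at 86.9 to 115.8 CPM in XY and 92.7 to 109.1 CPM in XX germ cells at 0 h, and at 128.7 to 179.9 and 135.3 to 228.7 CPM after 24 h in DMSO. All 24 h libraries were above the 0 h libraries of their sex (log2 0.73 ± 0.14 and 0.90 ± 0.14). With MEKi at 24 h, XY libraries held 197.8 to 232.1 CPM, also all above DMSO (log2 0.36 ± 0.13, FDR = 1). XX 72 h DMSO libraries were spread, at 38.2, 44.9, 72.9 and 90.5 CPM. Without replicate 11, the highest of them, Scd2 was called higher in XY than XX at 72 h (log2 1.05, FDR = 0.0275) and lower in XX at 72 h than at 0 h (−1.07, FDR = 0.0201).

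Lpcat3, which places polyunsaturated fatty acids into phospholipids, rose by 72 h of culture in XY germ cells. XY libraries went from 64.8, 74.1, 77.7 and 82.9 CPM at 0 h to 127.1, 137.5, 138.7 and 151.1 CPM at 72 h in DMSO (log2 0.93 ± 0.11, FDR = 0.00400). XX libraries were at 47.7 to 57.7 CPM at 0 h and 46.2 to 56.3 CPM at 72 h (log2 −0.06 ± 0.13, FDR = 1). Between these times, at 24 h in DMSO, XX libraries held 66.9 to 88.6 CPM, all above XX 0 h (log2 0.49 ± 0.12). XY libraries held 78.8 to 102.1 CPM at 24 h, overlapping XY 0 h (log2 0.25 ± 0.11). Neither 24 h difference was called. The XY call at 72 h was lost without XY 0 h replicate 3 (FDR = 0.0804).

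At 72 h every XY library held more Lpcat3 than every XX library (log2 1.42 ± 0.12, FDR = 6.93e-08). The change of the sex difference from 0 h to 72 h was 0.98 ± 0.17 (FDR = 0.0397). It was lost without any 1 of 6 libraries: XX 0 h replicates 2 and 5, XY 0 h replicate 3, XX 72 h DMSO replicates 4 and 7, and XY 72 h DMSO replicate 5 (FDR 0.0525 to 0.130), and with the replicate block (FDR = 0.0835). It was also lost with DESeq2 (FDR = 0.0721), without the filter (0.111) and with only the groups compared (0.0738). For Abca1 the same change was 1.08 ± 0.28 (FDR = 0.120), called by edgeR (0.0382), by eBayes (0.00103) and after upper-quartile scaling (0.0375).

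Lpcat3 overlapped DMSO with FGFRi, at 79.9 to 100.2 CPM at 24 h and 119.8 to 154.6 CPM at 72 h. XY 72 h MEKi libraries held 73.5, 83.4, 91.0 and 95.2 CPM, all below DMSO (log2 −0.66 ± 0.10). This was not called against a 1.5-fold change (FDR = 0.8295), and was called by limma eBayes with an observed fold over 1.5 (1.25e-07). In XY 72 h MEKi the endothelial and macrophage sums were also below DMSO, as given above, the red blood cell markers summed to 12.3 to 26.3 against 30.4 to 55.1 CPM, and the Sertoli cell markers were higher at 34.2 to 85.9 against 17.97 to 32.7 CPM. Their part in the Lpcat3 and Scd1 values was not tested.

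Of the receptors, Nr1h2 was detected in every library and separated by sex. XY libraries, over all times and treatments, held 33.0 to 55.1 CPM, and XX libraries 16.0 to 32.6 CPM, without overlap. The sex difference was called at 24 h (log2 1.26 ± 0.17, FDR = 0.00242, but 0.0515 without XY 24 h DMSO replicate 5), and by limma treat not at 0 h (0.66 ± 0.15, FDR = 1, but 0.000449 by eBayes with a fold over 1.5) or 72 h (0.57 ± 0.17). Nr1h2 differed from DMSO by 0.05 in 24 h FGFRi (95% interval −0.24 to 0.34), and its FGFRi libraries overlapped DMSO at both times.

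Nr1h3 had 137 counts in the 40 libraries together and did not pass the filter with all libraries. It was tested in the fit without the filter, which was not repeated with libraries left out. In most fits without 1 library it passed the filter, but not without XX 72 h DMSO replicate 4 or 11, its highest libraries, so those fits are not used for it. XX libraries held 7 counts at 0 h, 25 at 24 h and 34 at 72 h in DMSO, the last at 3.35 to 6.19 CPM, above every other group in mean. XY 72 h FGFRi held 30 counts and XY 72 h DMSO 12, and their levels overlapped. XY 24 h FGFRi held 0 counts, which allows up to 0.499 CPM over the group (3 counts, counting error only), and XY 24 h DMSO held 9. XX 0 h libraries held 0.386 to 1.11 CPM, all below XX 72 h DMSO. Without the filter, this difference was called (limma treat, log2 2.79, FDR = 0.00143), and neither the change from 0 h to 72 h in XY (log2 1.74, FDR = 0.186) nor the sex difference at 72 h (log2 −1.72, FDR = 0.100) was.

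**Figure D2:**
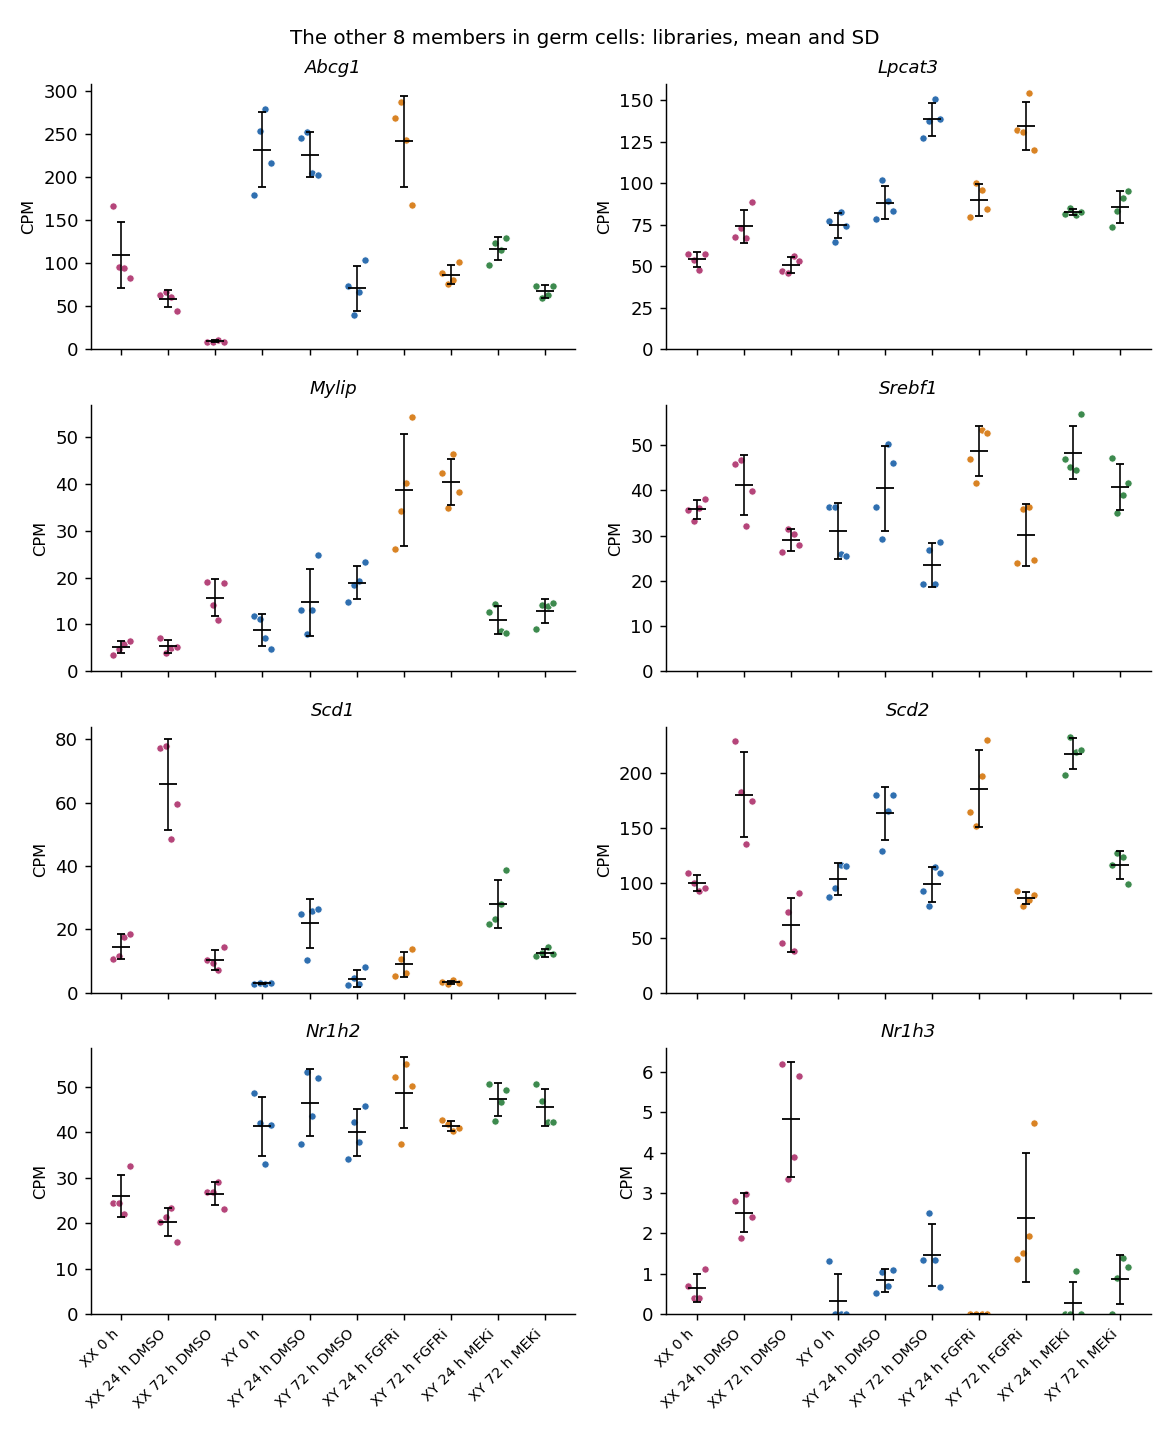
Levels of the other 8 members in CPM (vertical axes, each from 0) in the 4 libraries of each group (points; pink XX, blue XY without inhibitor, orange FGFRi, green MEKi), with the mean and SD (black). Mylip is highest in the FGFRi groups at 38.7 and 40.5 CPM, and Scd1 in XX 24 h DMSO at 65.8 CPM.

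Between XY and XX germ cells, 1 of the 8 tested members was called higher and 1 lower at 0 h, beside 1.34% of all genes higher and 1.65% lower. At 24 h in DMSO, 3 were higher and 1 lower, beside 4% of all genes higher and 5.99% lower. At 72 h, 2 were higher and 0 lower, beside 22.8% of all genes higher and 18.1% lower. Abcg1 was among the members higher in XY at each of the 3 times.

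From 0 h to 24 h in DMSO, 1 member was higher and 0 lower in XY, beside 1.61% of all genes higher and 1.33% lower, and 1 higher and 0 lower in XX germ cells, beside 2.32% of all genes higher and 0.911% lower. From 0 h to 72 h, 2 were higher and 1 lower in XY, beside 20.2% of all genes higher and 15.2% lower, and 1 higher and 1 lower in XX, beside 18.8% of all genes higher and 18.4% lower. The 24 h calls were both Scd1. The 72 h shares are near those of all genes, and nothing about the members is read from them.

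The 72 h DMSO libraries in these counts and in the 72 h MEKi comparison are also the controls of the contrast that chose the genes.

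With MEKi at 24 h, limma called 0 members, beside 0.0525% of all genes higher and 0.111% lower. Abcg1 alone had an unadjusted p under 0.05, and edgeR and DESeq2 each called 0. At 72 h, 1 was higher and 0 lower, beside 4.01% of all genes higher and 5.11% lower. The change of the sex difference from 0 h to 72 h was upward for 2 and downward for 0, beside 16% of all genes higher and 12.9% lower. The change of the MEKi effect from 24 h to 72 h was called by limma for 0 members, beside 1.21% of all genes higher and 0.675% lower, with Scd1 alone at an unadjusted p under 0.05 and 0 calls by edgeR and DESeq2.

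**Figure D3:**
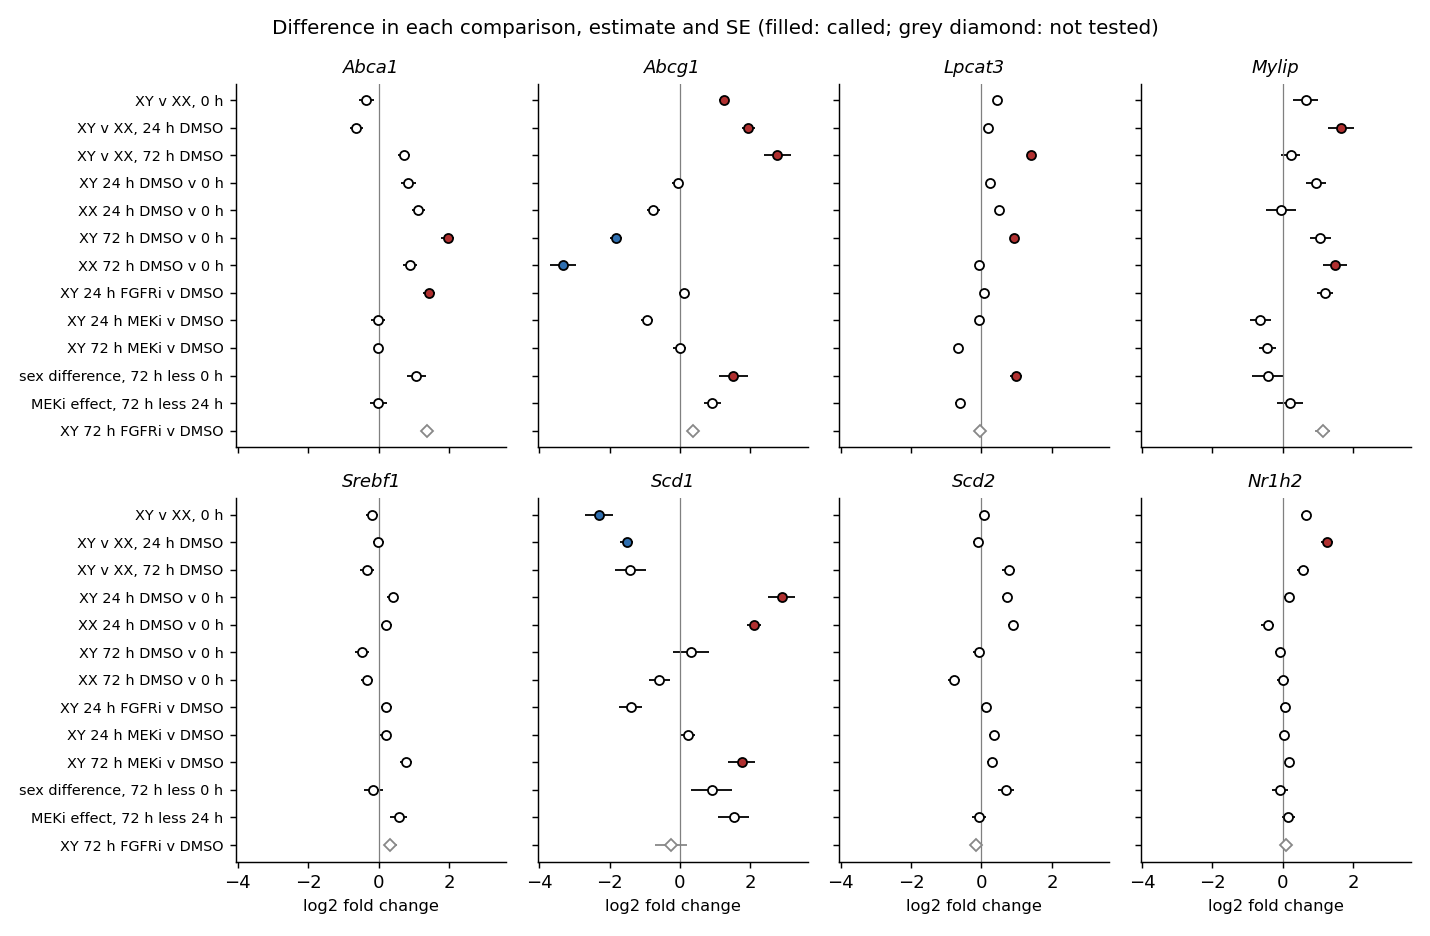
Log2 fold change with its SE (horizontal axes) of the 8 tested members in 12 tested comparisons and in XY 72 h FGFRi against DMSO, which was not tested (grey diamonds). Filled points were called (red higher, blue lower), and Abca1 stands at 1.42 for 24 h FGFRi and −0.01 for both MEKi comparisons.

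Further genes of LXR signalling and cholesterol handling were examined as 6 lists with 62 tested genes. With FGFRi at 24 h, 0 of the 62 were called by limma, edgeR or DESeq2, and 4 had an unadjusted p under 0.05 in limma (among them Insig1, Abca8b and Lrp8). Abca8b and Lpl, named after their values were seen, had a higher log2 difference than Abca1, at 2.07 ± 0.71 and 1.62 ± 0.63, and were among 271 of the 15252 genes tested that did. The 16 other LXR targets had a median log2 difference of −0.30 and the 14 genes of SREBP processing and SREBP2 targets one of −0.44, beside −0.03 over all genes. With FGFRi at 72 h, where both groups were in pool 2, these medians were 0.07 and −0.26, given without a test.

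With MEKi at 24 h, 0 of the 62 list genes were called by limma, edgeR or DESeq2, and Lpl alone had an unadjusted p under 0.05. At 72 h, limma called 3 higher and 1 lower, beside 4.01% and 5.11% of all genes, and nothing about the lists is read from this count. Nrip1, a corepressor of nuclear receptors, was at 66.5 ± 3.83 CPM (SD, n = 4) against 24.6 ± 2.55 CPM in DMSO (log2 1.46, FDR = 0.000393), and the coactivator Ncoa1 at 42.8 ± 2.89 against 15.6 ± 5.72 CPM (log2 1.44, FDR = 0.00220). These were 2 of the 15 LXR partners and cofactors. Of the 14 SREBP genes, 1 was called higher. Soat1, which esterifies cholesterol for storage and is 1 of 7 genes of oxysterol enzymes and sterol stores, was lower at 46.1 ± 4.73 against 109.4 ± 19.6 CPM (log2 −1.22, FDR = 0.000447). Of the 16 other LXR targets, limma and DESeq2 called 0 and edgeR 1, with 3 at an unadjusted p under 0.05. The marker sums of other cell types that differed between these libraries are given above. Their part in the values of Nrip1, Ncoa1, Soat1 and the other list genes was not tested.

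**Figure D4:**
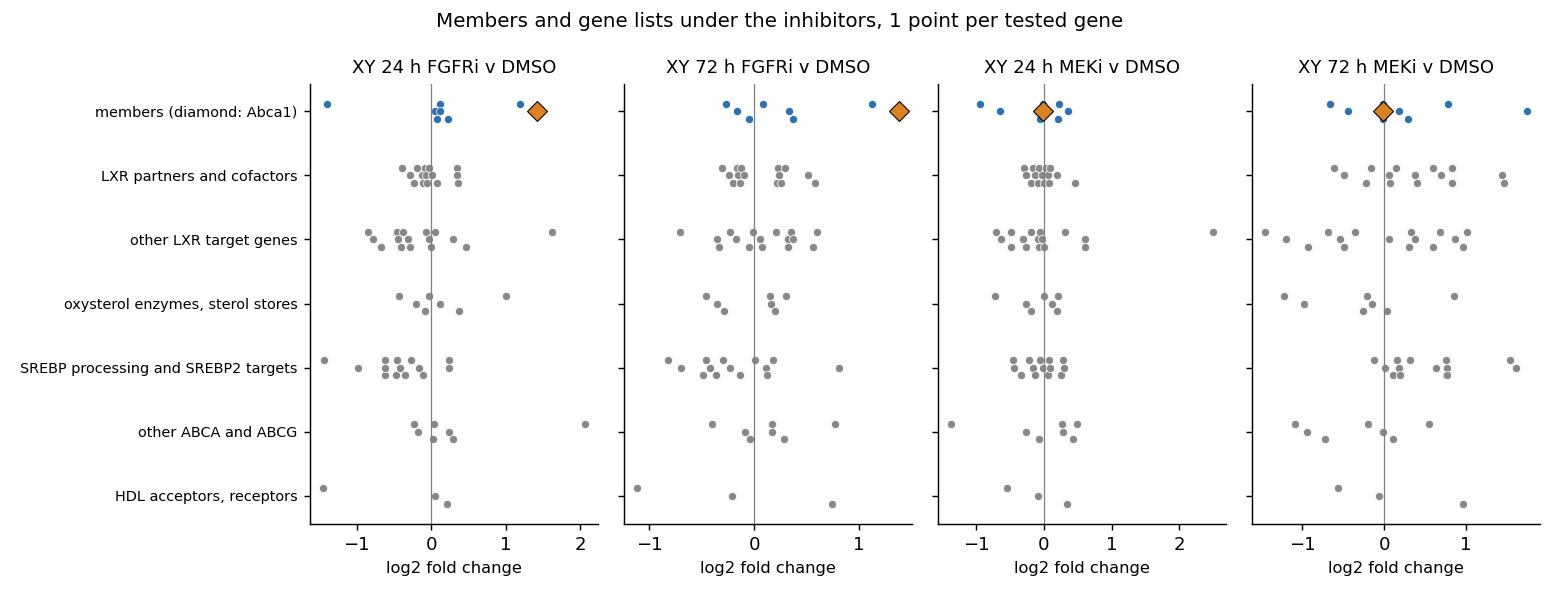
Log2 fold change (horizontal axes, each with its own scale) of each tested member and list gene (1 point each) in XY germ cells under FGFRi and MEKi at 24 h and 72 h. The orange diamond is Abca1, at 1.42 and 1.39 with FGFRi and −0.01 with MEKi.

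Between the sexes at 72 h in DMSO, where 22.8% of all genes were higher and 18.1% lower in XY, list genes were called on both sides, and 0 of the 3 genes of HDL acceptors, receptors and LCAT. Nothing particular to the lists is read from these counts. Of the 16 other LXR targets, 5 were higher and 1 lower in XY, with Acly, which makes acetyl-CoA for lipid synthesis, at 298.3 ± 22.9 against 46.7 ± 7.44 CPM in XX (log2 2.73, FDR = 5.33e-18). Of the 15 partners and cofactors, 3 were higher and 3 lower, with the LXR partner Rxra at 36.4 ± 1.71 against 11.8 ± 3.55 CPM (log2 1.68, FDR = 0.000187) and Ncoa1 at 15.6 ± 5.72 against 84.2 ± 10.7 CPM (log2 −2.40, FDR = 2.67e-10). Of the 7 oxysterol and sterol store genes, 4 were higher and 1 lower.

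From 0 h to 72 h in DMSO, 20.2% of all genes were higher and 15.2% lower in XY, and 18.8% and 18.4% in XX germ cells. Of the lists, 1 of the 14 SREBP genes was higher and 5 lower in XY, and 2 higher and 8 lower in XX germ cells. Of the 16 other LXR targets, 3 were higher and 4 lower in XY (median log2 difference −0.17), and 1 was higher and 7 lower in XX germ cells (median −1.07), beside medians over all genes of 0.06 and −0.01. Of the 7 other ABCA and ABCG transporters, 4 were higher and 1 lower in XY, and 3 higher and 0 lower in XX germ cells. Abca3, a phospholipid transporter, went from 2.98 ± 1.48 to 47.7 ± 6.21 CPM in XY (log2 3.85, FDR = 3.45e-11). In XX it went from 7.55 ± 2.42 to 33.9 ± 4.59 CPM (log2 2.00, FDR = 2.59e-06). Cyp46a1, which makes an oxysterol that activates LXRs, rose in XY from 0.818 ± 0.591 to 6.48 ± 3.52 CPM (log2 2.68, FDR = 0.000826) and in XX from 1.10 ± 0.291 to 19.6 ± 3.39 CPM (log2 3.86, FDR = 6.44e-09). Apoe, an apolipoprotein that accepts exported cholesterol, fell in XX from 67.0 ± 3.85 to 11.1 ± 4.51 CPM (log2 −2.77, FDR = 2.69e-09).

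Somatic marker sums also differed in these sex and time comparisons. Each sum is named after its marker list and does not by itself show that such cells were present. Insl3, 1 of the 6 Leydig cell markers, was at 0 in every group. At 0 h, sums without overlap were those of mesenchyme (125.8 to 341.3 CPM in XY and 40.4 to 85.3 CPM in XX), endothelium (21.9 to 28.1 and 11.6 to 13.2 CPM) and Leydig cells (21.2 to 29.4 and 9.79 to 12.7 CPM). At 24 h in DMSO this held for the granulosa cell markers (18.6 to 33.2 and 11.3 to 18.05 CPM). At 72 h it held for endothelium (57.1 to 80.6 and 5.35 to 12.3 CPM), red blood cells (30.4 to 55.1 and 15.5 to 21.4 CPM) and Leydig cells, which were lower in XY (18.6 to 28.6 and 29.9 to 41.8 CPM). The germ cell markers themselves were higher in XY at 24 h and at 72 h.

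Over time in XY germ cells, the mesenchyme sum was lower at 24 h than at 0 h (42.5 to 70.1 CPM), as was that of endothelium (14.1 to 19.2 CPM), while that of granulosa cells was higher. In XX germ cells, mesenchyme (103.2 to 182.0 CPM) and Leydig cell sums were higher at 72 h than at 0 h, and that of red blood cells was lower (from 22.4 to 41.1 CPM), as was that of the germ cell markers. The part of these markers in the sex and time differences of Abcg1, Mylip, Scd1, Lpcat3, Nr1h2 and the lists was not tested.

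The genes with levels most like those of Abca1 over the 40 libraries were Ctsf (Pearson r of log2 CPM 0.84), Matcap2 (0.84), Rasip1 (0.83), Dnah14 (0.83) and Wdr81 (0.83), and the most opposed were Nudt5 (−0.88), Tra2b (−0.85) and Azin1 (−0.84). These values are descriptions, since the libraries share sex, time, treatment and pool, and include those of the contrast by which Abca1 was chosen. Ctsf, a lysosomal protease, had a mean of 8.64 CPM in XY 0 h, 65.5 CPM in XY 72 h DMSO and 75.5 CPM in XY 72 h FGFRi. Among the members, Mylip had an r of 0.75 (rank 147 of 15251 genes) and Lpcat3 of 0.65 (rank 894), and Abcg1, Srebf1, Scd1, Scd2 and Nr1h2 lay between −0.24 and 0.20.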

How the data were processed

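RNA of 40 germ cell libraries was sequenced after poly(A) priming, with unique molecular identifiers (UMIs). Per the labels and the methods of the study, the authors mapped reads to GRCm39 with Rsubread and made deposited UMI counts per gene with scPipe. The members and gene lists were chosen with earlier results of these data known. Genes were kept by filterByExpr (minimum count 10, minimum total 15), leaving 15252 of 42422 genes with 99.2% of counts. Counts were scaled by TMM, weighted with voomWithQualityWeights and fitted over all 10 groups in limma 3.58.1 (edgeR 4.0.16, R 4.3.3). Calls are treat against a 1.5-fold change at a Benjamini-Hochberg false discovery rate (FDR) under 0.05 over all genes tested. Levels are CPM over TMM-scaled totals. Symbols came from GENCODE M39 for 40391 genes, and 2031 genes with 1.05% of counts had none. Genome coordinates are GRCm39, and promoter windows are RefSeq GRCm38.p6.

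All members were named, with genes taken from up to 4 called genes of each list per comparison, those of largest change, and the 5 genes most and 3 least correlated with Abca1. Insig1 and Lrp8 were named outside this rule, after their values were seen. Alternatives were edgeR glmTreat, DESeq2 1.42.0, eBayes with a fold over 1.5, DESeq2 and upper-quartile scaling, no filter, only the groups compared, subtraction of index-shared counts, a replicate block and leaving out each library. An alternative estimate of the library weights (REML) was added after seeing the data. Median depth was 2135128.5 counts. The scripts were tested on simulated data. Some genes of the lists are not reported here by name.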

Additional observations from a re-analysis of the deposited data

Results flagged for a closer look

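Of 89 groups of 4 libraries of a member, 7 had 1 library whose gap to the nearest other exceeded Dixon's 95% critical value, where chance gives about 1 in 20 groups. They were Abca1 in XY 72 h DMSO replicate 6 at 53.7 CPM, Abcg1 in XX 0 h replicate 2 at 166.5 CPM, Mylip in XY 72 h MEKi replicate 2 at 8.93 CPM and Scd1 in XY 24 h DMSO replicate 3 at 10.4 CPM. The others were Nr1h3 in XY 0 h replicate 2 at 1.32 CPM, in XY 72 h FGFRi replicate 6 at 4.74 CPM and in XY 24 h MEKi replicate 4 at 1.06 CPM, where the counts were few.

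The log2 difference between XY and XX germ cells changed from 0 h to 72 h by 1.51 for Abcg1 and by 0.98 for Lpcat3 in an interaction test of limma, and both calls were lost when any of several libraries was left out, as given above.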

How the results depend on the processing

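No direction of a called value was reversed. Of 19 calls for a member in a comparison, 13 were kept in every alternative with all libraries and 12 without each library in turn. With limma eBayes and a fold over 1.5, members called numbered 5 between the sexes at 72 h, 4 from 0 h to 24 h in XY, 4 in XX, 4 from 0 h to 72 h in XX, 3 with FGFRi at 24 h, 1 with MEKi at 24 h, 3 with MEKi at 72 h, 4 for the change of the sex difference and 3 for the change of the MEKi effect. DESeq2 called 1 between the sexes at 0 h, 2 from 0 h to 24 h in XX, 0 with MEKi at 72 h and 1 for the change of the sex difference. From 0 h to 24 h in XX, edgeR and upper-quartile scaling each called 2. Without the filter, 0 were called with FGFRi at 24 h, 0 with MEKi at 72 h and 0 for the change of the sex difference, for which DESeq2 size factors gave 1 and a fit of only the groups compared gave 0. The cause was not tested. Leaving out 1 library gave 2 to 2 members between the sexes at 0 h, 2 to 4 at 24 h and 2 to 4 at 72 h. From 0 h to 24 h it gave 1 to 1 in XY and 1 to 2 in XX, and from 0 h to 72 h 2 to 4 in XY and 1 to 3 in XX. These counts include Nr1h3 wherever leaving out a library let it pass the filter, which never happened without XX 72 h DMSO replicate 4 or 11, so they say nothing about its stability. Leaving out 1 library gave 1 to 1 with FGFRi at 24 h, 0 to 0 with MEKi at 24 h, 0 to 1 with MEKi at 72 h, 0 to 2 for the change of the sex difference and 0 to 0 for that of the MEKi effect. The log2 difference of Abca1 with FGFRi at 72 h lay between 1.30 and 1.49.

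Replicate numbers did not pair the samples (correlations of same-numbered libraries from −0.32 to 0.32). With the replicate block, 0 members were called for the change of the sex difference, where all-gene calls went from 4406 to 2586.

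Calls over all genes moved by over 1.5 times as follows. With eBayes they rose from 457 to 2249 and from 1524 to 4299 between the sexes at 0 h and 24 h, from 449 to 2330 in XY and 493 to 3008 in XX from 0 h to 24 h, from 5412 to 8348 from 0 h to 72 h in XY, from 40 to 630 with FGFRi at 24 h, from 25 to 556 and 1391 to 4748 with MEKi at 24 h and 72 h, from 4406 to 7606 for the change of the sex difference and from 287 to 2889 for that of the MEKi effect (182 by DESeq2). With edgeR they were 2360 between the sexes at 24 h, 700 in XY and 1101 in XX from 0 h to 24 h, 65 with FGFRi and 39 with MEKi at 24 h, and 494 for the MEKi effect. With the replicate block they fell from 6250 to 3888 between the sexes at 72 h, from 493 to 234 and 5675 to 3383 in XX from 0 h to 24 h and 72 h, from 1391 to 848 with MEKi at 72 h, and to 15 with MEKi at 24 h when fitted to the 12 XY libraries of that time. Without XY 0 h replicate 3 they were 298 between the sexes at 0 h and 263 from 0 h to 24 h in XY, and without XX 0 h replicate 4 they were 318 in XX. With FGFRi at 24 h they were 24 once replicate 5 of XY 24 h DMSO was dropped and 25 once replicate 4 of the treated group was, and dropping that DMSO library gave 184 for the MEKi effect.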
